A study of Mus musculus with 28 samples.

Results

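A set of 8 genes that mark or serve the naive state of mouse embryonic stem cells were followed across knockout lines: Zfp42, Dppa2, Dppa3, Dppa4, Dppa5a, Tcl1, Fbxo15 and Jam2. They were chosen by symbol, as 8 of the 24116 Entrez gene IDs in the count tables, and all 8 passed the filter on low counts in each fit. RNA was sequenced from the female line RGd2, in which every group, WT included, carried a reporter written Rex1:GFPd2-IRES-Blasticidin. Rex1 is the protein encoded by Zfp42, and whether transcripts of the reporter added reads to Zfp42 was not tested. The series, by its title, concerns the change between pluripotent states and the part in it of Zfp281, a DNA-binding zinc finger protein, together with Ehmt1, which methylates histone H3 at lysine 9, and the zinc finger factor Zic2.

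Cells of the stage named ESC grew in N2B27 medium with 2i, that is 3 uM of CHIR99021, an inhibitor of Gsk3, and 1 uM of PD0325901, an inhibitor of Mek. The other stages were taken 16 h and 32 h after 2i was withdrawn, when cells leave the naive state. Ribosome-depleted total RNA libraries (12, made with ScriptSeq and here called ribo-depleted) came from Zfp281 KO and WT cells of all 3 stages. Libraries of mRNA (16, made with TruSeq and here called polyA) came from WT cells, from single knockouts of Zic2 and of Ehmt1, and from knockouts of both (the double KO), without the 16 h stage. There were 14 groups of n = 2 libraries, from KO lines numbered 1 and 2 or from a pair of WT lines. Line 1 and line 2 of WT were WT and Zfp281_WT in the ribo-depleted set, and Ehmt1_WT and Zic2_WT in the polyA set. The same line was sampled at each stage, and a KO line may be a single clone. P-values therefore measure the spread between these lines only.

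Zfp42 codes for a zinc finger protein related to Yy1 and is the standard reporter gene of the naive state. Dppa2 and Dppa4 are neighbouring genes for a pair of SAP domain chromatin proteins that bind each other and open the way for genes of the 2-cell stage. Dppa3 (also Stella or PGC7) protects maternal DNA methylation in the egg and holds Uhrf1 away from chromatin, and Dppa5a encodes a KH domain RNA-binding protein. Tcl1 is a coactivator of the kinase Akt, Fbxo15 is the F-box subunit of a ubiquitin ligase, and Jam2 is a cell adhesion protein of tight junctions. Factors of the naive network such as Esrrb, Klf4 and Nanog bind near several of these genes, and most of them are switched off as cells become formative.

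Libraries held 18086421 to 35911590 counts in the ribo-depleted set at ESC and 32 h, 28538287 to 36365192 in the 16 h table and 19013882 to 28777604 in the polyA set. Ehmt1 stood at 17.6 to 31.4 CPM in the 8 libraries labelled Ehmt1 KO or double KO, against 80.3 to 154 in polyA WT, where CPM is the count scaled to library size, with TMM factors. Zfp281 stood at 278 to 350 CPM in the 6 libraries labelled Zfp281 KO and 238 to 340 in WT, and Zic2 at 107 to 228 CPM in Zic2 KO, 66.5 to 208 in the double KO and 105 to 146 in WT. The labels do not say which stretch of a gene was changed, so counts over whole genes are no check of Zfp281 KO and Zic2 KO, and these names stand for the libraries so labelled. Both libraries of line Zfp281_WT in the table of ESC and 32 h differed from the rest: 89 and 87 percent of olfactory receptor genes had a count, against 11.3 to 24.8 percent in the remaining 6 libraries of that table. Called results on the 8 genes in that table are given with and without it. Leaving it out leaves a single WT library at each stage. The spread in those fits comes from the Zfp281 KO lines alone, so only their effect sizes are read. Summed CPM of the 4 embryonic stem markers was 1488 to 2515 in every library. The 8 fibroblast markers summed to 3.68 to 18.8 CPM, with Dcn, Lum and Postn at 0 in polyA WT at ESC, and the 6 primitive endoderm markers to 4.3 to 22. Among the 6 trophoblast markers the sum moved with stage and genotype, from 47.1 to 69.3 CPM in ribo-depleted WT at ESC to 15.9 to 18.1 at 32 h (31.4 to 31.9 in Zfp281 KO), and from 77.5 to 83.7 in polyA WT to 19.9 to 21.6 (20.9 to 23.5 in Ehmt1 KO and 40.4 to 45.5 in the double KO). The 6 neural markers summed to 92.4 CPM in both ribo-depleted WT libraries and 96.9 to 109 in polyA WT at 32 h, 53 to 59.7 in Zfp281 KO, 82.2 to 84.4 in Ehmt1 KO and 55.3 to 63.8 in the double KO. At ESC the neural sum was 40.8 to 43.7 CPM in polyA WT and 39.6 to 41.3 in Zic2 KO, but 69.9 to 95.7 in Ehmt1 KO and 99.2 to 123 in the double KO. Of the 6 neural markers, 4 had a mean under 1 CPM in Ehmt1 KO and in the double KO at ESC, and 3 in polyA WT. The ESC sums therefore rest on few of the markers. The part of these genes in the results was not tested. In such bulk samples, fewer cells of a type and less RNA per cell cannot be told apart.

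Coordinates are of GRCm38. Zfp42 (Entrez 22702) spans chr8:43295067-43307009, Tcl1 (21432) chr12:105216753-105222737 and Jam2 (67374) chr16:84774123-84826380. Dppa4 (73693) at chr16:48283735-48294292 and Dppa2 (73703) at chr16:48310274-48319513 lie 15981 bases apart. Dppa3 (73708) at chr6:122626424-122630271 lies 77217 bases from Nanog, and Dppa5a (434423) at chr9:78367052-78368199 lies 8703 bases from Ooep, a related gene. The sources used here do not give the strand setting or how reads of near-identical copies were counted. Counts of Zfp42 and the Dppa genes, which have pseudogene copies, and of Fbxo15, whose span holds Timm21, are uncertain to that extent.

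RefSeq promoter sequences were available for Zfp42 and Tcl1, both of which fell on exit in both kits, and the 250 bases before each start site are shown so that their motifs can be compared. Both read 5′ to 3′ along the gene on the minus strand of GRCm38.p6, Zfp42 at chr8:43307010-43307259 and Tcl1 at chr12:105222738-105222987. Capitals mark matches to 10 motifs searched on both strands.
Zfp42: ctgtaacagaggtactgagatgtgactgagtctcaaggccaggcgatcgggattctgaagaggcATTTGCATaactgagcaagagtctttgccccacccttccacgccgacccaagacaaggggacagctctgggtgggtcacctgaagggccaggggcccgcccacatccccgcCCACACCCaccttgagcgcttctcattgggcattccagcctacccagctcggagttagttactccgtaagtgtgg
Tcl1: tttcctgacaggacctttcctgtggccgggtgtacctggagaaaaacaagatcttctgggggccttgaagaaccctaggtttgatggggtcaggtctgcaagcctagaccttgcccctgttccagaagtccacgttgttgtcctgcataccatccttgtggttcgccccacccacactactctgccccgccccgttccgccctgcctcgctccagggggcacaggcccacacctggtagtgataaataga
Zfp42 held the octamer ATGCAAAT, read as ATTTGCAT, 186 bases before the start site, and 1.6 percent of 32851 promoter windows of the same length held it. It held the Klf motif GGGNGTGG, read as CCACACCC, 75 bases before the start site, found in 15.9 percent of windows. The remaining motifs were ACAAAG and ACAATG (Sox, in 16.5 and 10.7 percent of windows), AAGGTCA (Esrrb, 4.08), a G-rich motif of the kind bound by Zfp281 (12), CAGCAGG (Zic, 8.44), AAGATGGC (Yy1, 1.56), ATCAAAG (Tcf/Lef, 3.21) and TTCNNNGAA (Stat, 7.02). Tcl1 held none of the 10 sets of letters in this window. Zfp42 had 9 CpG dinucleotides and Tcl1 7, against a median of 6 over all windows.

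In WT cells in 2i, levels per kilobase of exon ranged from among the highest of all genes to near the middle. In the polyA libraries, Dppa5a came first at 257 to 332 CPM per kb, followed by Zfp42 at 173 to 175. Fbxo15 (62.1 to 70.3) and Dppa4 (59.1 to 67.8 CPM per kb) overlapped, as did Dppa2 (47.8 to 52.8) and Tcl1 (36.1 to 49.5). Jam2 stood at 9.5 to 17.5 and Dppa3 last at 0.955 to 3.52 CPM per kb. The order was the same in the ribo-depleted libraries, from Dppa5a at 251 to 347 to Dppa3 at 4.75 to 8.72 CPM per kb. The plot of levels by library shows each gene in CPM.

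**Figure D1:**
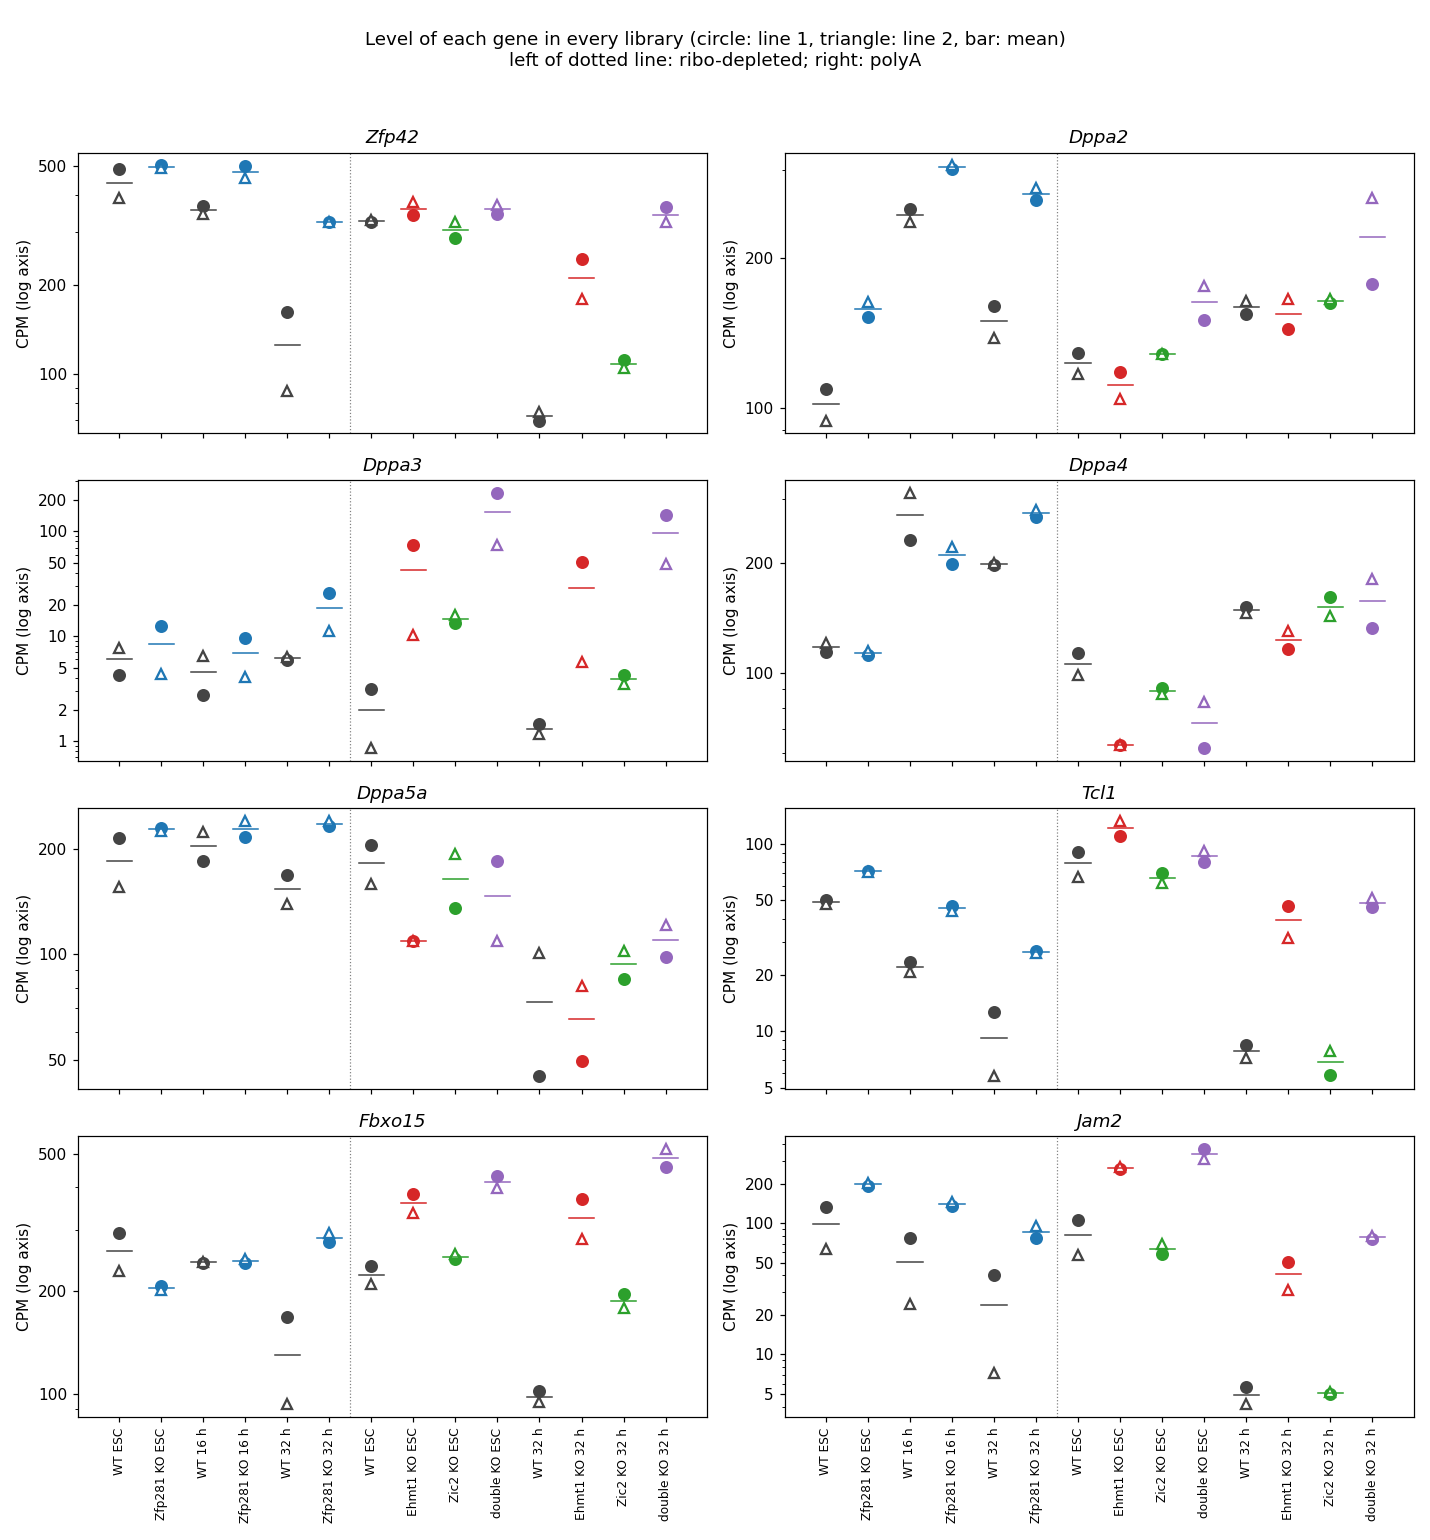
CPM (log axis) of each gene in each of the 28 libraries, grouped by genotype and stage, ribo-depleted groups left of the dotted line and polyA groups right of it; circles are line 1, triangles line 2 and bars the mean of n = 2. Zfp42, Tcl1, Fbxo15 and Jam2 are lowest in WT or Zic2 KO cells at 32 h, Dppa2 and Dppa4 are lowest at ESC, and Dppa3 is highest in the double KO.

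Withdrawal of 2i for 32 h split the genes in WT cells into those that fell and those that rose. In the polyA set, Zfp42, Dppa5a, Tcl1, Fbxo15 and Jam2 fell and Dppa4 rose, so that 6 of 8 were called at an adjusted p under 0.05 in edgeR's quasi-likelihood test, where 35.7 percent of all genes tested were called (17.9 higher and 17.8 lower). In the ribo-depleted set, Zfp42, Tcl1 and Fbxo15 fell and Dppa2 and Dppa4 rose, 5 of 8 against 25.9 percent of all genes (15 higher and 11 lower). The median log2 fold change of the 8 genes was -1.25 and -0.64, against 0.01 and 0.02 over all genes. Dppa3 was called in neither set. The sets differ in kit and WT lines, and the difference between them was not tested.

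Zfp42 stood at 326 and 329 CPM in polyA WT cells at ESC and at 69.8 and 74.7 at 32 h, so that 21.4 and 22.7 percent of each line's ESC level remained. The groups were far apart, with a log2 fold change of -2.18 ± 0.14 (SE; adjusted p 4.1e-07). In the ribo-depleted set it stood at 489 and 390 CPM at ESC and 162 and 88 at 32 h (-1.81 ± 0.25, adjusted p 0.0013), and without the line Zfp281_WT the change was -1.70. At 16 h it was still at 369 and 345 CPM in a table scaled on its own.

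Tcl1, the Akt coactivator, fell as well. It stood at 91.3 and 66.7 CPM at ESC and 8.42 and 7.18 at 32 h in polyA WT cells, a log2 fold change of -3.34 ± 0.23 (adjusted p 6.6e-07), and 9.22 to 10.8 percent of the ESC level remained. In the ribo-depleted set it went from 50.6 and 47.8 CPM to 12.7 and 5.75 (-2.40 ± 0.28, adjusted p 0.00056, and -2.09 without Zfp281_WT), having reached 23.4 and 20.7 at 16 h. No library at 32 h reached any library at ESC.

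Jam2, the adhesion protein, fell in polyA WT cells. It stood at 105 and 57.4 CPM at ESC and 5.61 and 4.19 at 32 h (-4.06 ± 0.30, adjusted p 1.2e-06), and only 1.62 percent of genes had a larger change. In the ribo-depleted set the WT lines differed at each stage, with 132 and 64 CPM at ESC, 76.9 and 24.4 at 16 h and 40.1 and 7.19 at 32 h. Line WT was the higher of the pair throughout, the groups at ESC and 32 h did not overlap, and the change of -2.04 ± 0.81 was not called (adjusted p 0.15). The change was -1.82 without Zfp281_WT and -3.77 without the 32 h library of line WT, fits that leave a single WT library at 32 h.

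Fbxo15 (50764, on chromosome 18), the F-box subunit, fell in both kits. It stood at 236 and 209 CPM at ESC and 102 and 94.3 at 32 h in polyA WT cells (-1.18 ± 0.13, adjusted p 2.7e-05). In the ribo-depleted set it went from 294 and 228 CPM to 167 and 93.3 and fell by 1.00 ± 0.24 on the log2 scale (adjusted p 0.018), and the change was -0.92 without Zfp281_WT. At 16 h, 82.2 and 106 percent of the ESC level remained, so no fall was seen in both lines by then. Without the ESC library of line 1 or line 2, the ribo-depleted fall of Fbxo15 was no longer called (adjusted p 0.17 and 0.062), nor was it in a fit of the WT groups alone (-1.05, adjusted p 0.06). Timm21, which overlaps the gene, rose over the same interval (1.10 ± 0.09 and 1.27 ± 0.23 in the ribo-depleted and polyA sets).

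The neighbours Dppa2 and Dppa4 went the other way. Dppa4 stood at 114 and 121 CPM at ESC, 232 and 312 at 16 h and 198 and 201 at 32 h in ribo-depleted WT cells (0.76 ± 0.07 at 32 h, adjusted p 7.3e-05). Dppa2 stood at 109 and 94.1 CPM, then 251 and 236, then 160 and 138 (0.56 ± 0.10, adjusted p 0.0032). Both were higher at 16 h than at either other stage, with 204 to 258 percent of the ESC level, although the 16 h table was scaled on its own and no test joins it to the others. Without Zfp281_WT the 32 h rises were 0.70 for Dppa4 and 0.46 for Dppa2. The Dppa2 rise was not called in a fit of the WT groups alone (0.52, adjusted p 0.08).

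In polyA WT cells Dppa4 was called and Dppa2 was not. Dppa4 went from 113 and 98.2 CPM to 152 and 146 (0.50 ± 0.16, adjusted p 0.026), a call lost without the ESC library of Zic2_WT (adjusted p 0.15) or without the 32 h library of Ehmt1_WT (0.12) or Zic2_WT (0.076). Dppa2 went from 129 and 117 CPM to 154 and 164 and was not called (0.37 ± 0.16, adjusted p 0.085), but was called with the line as a block (0.37, adjusted p 0.015) and in a fit of the WT groups alone (0.35, adjusted p 0.036). Morc1, on the other side of Dppa2, fell in this set (-0.62 ± 0.15).

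Dppa5a, the KH domain protein gene, stood at 205 and 159 CPM at ESC and 44.8 and 101 at 32 h in polyA WT cells (-1.32 ± 0.35, adjusted p 0.011). Its 32 h lines differed, with 21.8 percent of the ESC level left in Ehmt1_WT and 63.6 percent in Zic2_WT. The call was lost without the ESC library of Ehmt1_WT (-1.12, adjusted p 0.084), without its 32 h library (-0.85, adjusted p 0.10) and with no filter on low counts (adjusted p 0.051). In the ribo-depleted set it stood at 215 and 155 CPM at ESC and 168 and 139 at 32 h (-0.27 ± 0.14, adjusted p 0.23). It was called there with the line as a block (-0.26, adjusted p 0.0023), and the change was -0.46 without Zfp281_WT.

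Dppa3 was the one gene with no call on exit in WT cells. It stood at 4.24 and 7.78 CPM at ESC, 2.76 and 6.41 at 16 h and 5.96 and 6.39 at 32 h in the ribo-depleted set (0.08 ± 0.67, adjusted p 0.99). In the polyA set it stood at 3.14 and 0.851 CPM at ESC and 1.45 and 1.16 at 32 h (-0.63 ± 1.46, adjusted p 0.77). Without Zfp281_WT the ribo-depleted change was 0.39. The groups overlapped in both sets, and with these standard errors a change of the size seen in Dppa2 or Dppa4 was not detectable.

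**Figure D2:**
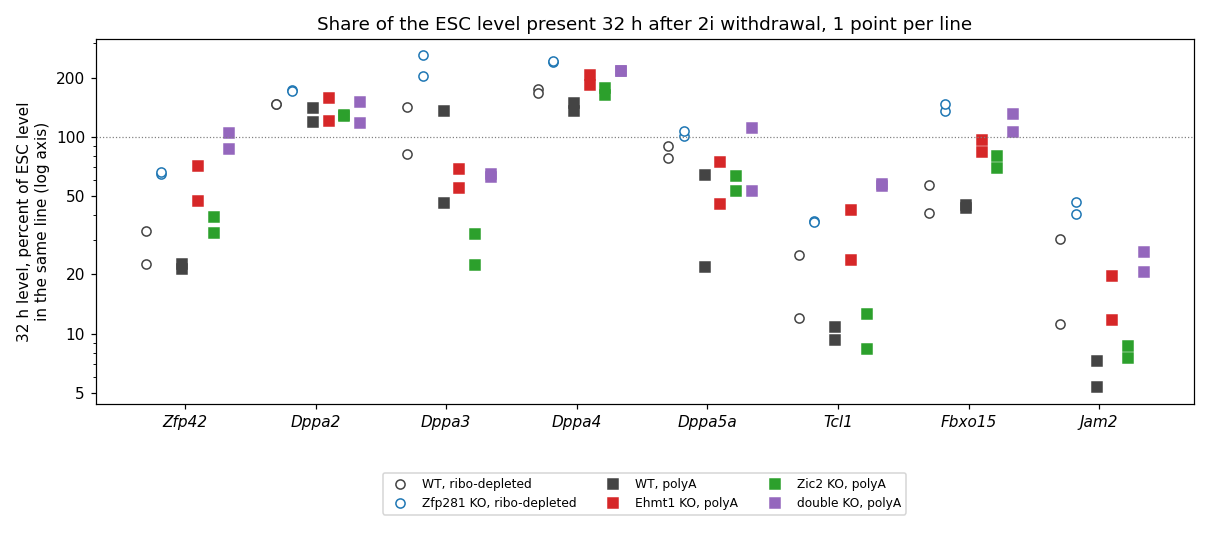
Level at 32 h as a percent of the ESC level of the same line (log axis), 1 point per line, open circles ribo-depleted and filled squares polyA; the dotted line marks 100 percent. Zfp42, Tcl1, Fbxo15 and Jam2 kept more of their ESC level in Zfp281 KO, Ehmt1 KO and double KO lines than in the WT lines of the same kit. For Tcl1, Ehmt1 KO lines kept 23.7 and 42.3 percent and polyA WT lines 9.22 and 10.8. Both Zic2 KO lines also lay above both polyA WT lines for Zfp42, Fbxo15 and Jam2. In the main edgeR fits the response of these genes was not called as different from WT in Zfp281 KO or Zic2 KO.

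In Zfp281 KO cells, edgeR called 1 of the 8 genes against WT in 2i, 3 at 16 h and 6 at 32 h, each called gene higher. Dppa2 alone was called at ESC, where 13.8 percent of all genes were (8.5 higher and 5.3 lower), so 1 of 8 was near the share over all genes. Zfp42, Dppa2 and Tcl1 were called at 16 h, against 28.6 percent of all genes (15.3 higher and 13.3 lower). Zfp42, Dppa2, Dppa4, Dppa5a, Tcl1 and Fbxo15 were called at 32 h, against 28.5 percent (16.6 higher and 11.9 lower). The median log2 fold change of the 8 genes was 0.42, 0.37 and 1.26 at the 3 stages, against -0.04, -0.01 and -0.07 over all genes. The counts depended on the fit and on the line Zfp281_WT. Among uncalled genes, Fbxo15 was lower at ESC (-0.36 ± 0.24, and -0.59 without Zfp281_WT) and Dppa4 at 16 h (-0.37 ± 0.14).

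Zfp42 stood at 326 CPM in both Zfp281 KO lines at 32 h, above 162 and 88 in WT (1.38 ± 0.25, adjusted p 0.0048). It was also higher at 16 h, at 503 and 456 against 369 and 345 CPM (0.43 ± 0.09, adjusted p 0.0081), while at ESC it stood at 504 and 492 against 489 and 390 (0.18 ± 0.24, adjusted p 0.64). The KO lines kept 64.6 and 66.3 percent of their ESC level at 32 h, and the WT lines 33.1 and 22.6 percent. The 32 h difference was 0.98 without Zfp281_WT, and it was not called in a fit of those groups alone (1.31, adjusted p 0.059). The 16 h call was lost without KO line 1 (0.35, adjusted p 0.12). Without Zfp281_WT the difference was 0.38 at 16 h and -0.04 at ESC.

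Tcl1 stood at 47 and 43.8 CPM in KO cells at 16 h, against 23.4 and 20.7 in WT (1.04 ± 0.11, adjusted p 0.00036), and at 26.9 and 26.2 against 12.7 and 5.75 at 32 h (1.51 ± 0.28, adjusted p 0.0056). Fbxo15 stood at 277 and 294 CPM at 32 h against 167 and 93.3 (1.13 ± 0.24, adjusted p 0.011), with 240 and 247 against 241 and 243 at 16 h. In the KO lines Fbxo15 was thus above its ESC level of 206 and 201 CPM at 32 h, at 135 and 146 percent of it. Without Zfp281_WT the 32 h differences were 1.03 for Tcl1 and 0.74 for Fbxo15. The Tcl1 call was lost without KO line 1 at 32 h (adjusted p 0.059) and the Fbxo15 call without either KO line (0.069 and 0.076). In a fit of the 32 h groups alone neither was called (Tcl1 1.43, adjusted p 0.05, and Fbxo15 1.06, adjusted p 0.081). The 16 h difference of Tcl1 was 0.95 without Zfp281_WT.

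In 2i Tcl1 stood at 72.2 and 71.4 CPM in KO cells against 50.6 and 47.8 (0.54 ± 0.25, adjusted p 0.21), and Fbxo15 at 206 and 201 against 294 and 228 (-0.36 ± 0.24, adjusted p 0.35). Neither group overlapped WT, and without Zfp281_WT the differences were 0.44 and -0.59. Tcl1 was called in a fit of the 2 groups alone (0.48, adjusted p 0.014).

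Jam2 was higher in Zfp281 KO lines than in both WT lines at every stage, yet not called at any. It stood at 192 and 203 CPM at ESC, 135 and 146 at 16 h and 77.7 and 94.9 at 32 h, and the highest WT values were 132, 76.9 and 40.1. The log2 fold changes were 1.00 ± 0.76, 1.48 ± 0.75 and 1.85 ± 0.81 (adjusted p 0.43, 0.29 and 0.17). Without Zfp281_WT, the WT line with the lower Jam2, each was smaller, at 0.52, 0.87 and 1.07. Without the 16 h or 32 h library of line WT they were 2.53 and 3.59. Each of these fits leaves 1 WT library, assumed to vary like the other groups.

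Dppa2 was higher in Zfp281 KO cells at each stage. It stood at 152 and 163 CPM against 109 and 94.1 at ESC (0.63 ± 0.10, adjusted p 0.0042), at 302 and 307 against 251 and 236 at 16 h (0.32 ± 0.08, adjusted p 0.017), and at 262 and 276 against 160 and 138 at 32 h (0.85 ± 0.10, adjusted p 0.00032). The ESC call was lost without KO line 1 or 2 (adjusted p 0.07 and 0.13), and so was the 16 h call (0.13 and 0.16). Without Zfp281_WT the 3 differences were 0.46, 0.28 and 0.71. Morc1, on its far side, was higher too at 32 h (1.71 ± 0.16).

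Dppa4 was close to WT in 2i, at 112 and 115 against 114 and 121 CPM, and stood at 199 and 222 against 232 and 312 at 16 h (-0.37 ± 0.14, adjusted p 0.093). That 16 h difference was called by DESeq2 (-0.37, adjusted p 0.022). It was -0.56 without WT line 1 and -0.14 without Zfp281_WT. At 32 h Dppa4 was above WT, at 269 and 280 against 198 and 201 CPM (0.46 ± 0.07, adjusted p 0.0014), and the difference was 0.44 without Zfp281_WT. Dppa4 was the only member whose 32 h response edgeR called as different from that of WT (0.51 ± 0.10, adjusted p 0.027). There 4.15 percent of all genes were called (1.95 higher and 2.2 lower), and 4 members had an unadjusted p under 0.05. Larger values that were not called included Fbxo15 (1.49 ± 0.34, adjusted p 0.058), Zfp42 (1.20 ± 0.35, 0.12) and Tcl1 (0.96 ± 0.38, 0.27). DESeq2 called Fbxo15 too (1.50, adjusted p 0.00029), where it called 5.82 percent of all genes. With the line as a block, 5 members were called, Zfp42 (1.25), Dppa3 (1.06), Dppa5a (0.32) and Fbxo15 (1.53) besides Dppa4, where 13.7 percent of all genes were. The Dppa4 call was lost without any 1 of the 4 KO libraries and with no filter (adjusted p 0.20), and the difference was 0.51 without Zfp281_WT.

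Dppa5a stood at 232 and 240 CPM in KO cells at 32 h, above 168 and 139 in WT (0.62 ± 0.14, adjusted p 0.011). In KO cells it stood at 225 to 229 CPM at ESC and 216 to 240 at 16 h, where the difference was not called and was 0.31 without Zfp281_WT. The 32 h call was lost without either KO line at 32 h or without Zfp281_WT at that stage alone (0.49). Without that line at both stages the 32 h difference was 0.46. Its neighbour Ooep was higher at 32 h too (1.14 ± 0.15).

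In Ehmt1 KO cells in 2i, Dppa3, Tcl1, Fbxo15 and Jam2 were higher and Dppa4 was lower than in WT, 5 of 8 against 26.9 percent of all genes (14.8 higher and 12.1 lower). At 32 h Zfp42, Dppa3, Tcl1, Fbxo15 and Jam2 were higher, 5 of 8 against 26.6 percent (15.1 higher and 11.4 lower). Dppa3, Fbxo15 and Jam2 were higher and Dppa4 lower in 2i in the double KO, 4 of 8 against 39.4 percent (20.9 higher and 18.5 lower). At 32 h Zfp42, Dppa2, Dppa3, Tcl1, Fbxo15 and Jam2 were higher, 6 of 8 against 39.1 percent (21.4 higher and 17.8 lower). In 2i the summed neural markers were also higher in Ehmt1 KO (69.9 to 95.7 CPM) and the double KO (99.2 to 123) than in WT (40.8 to 43.7). In both KO genotypes 4 of the 6 had a mean under 1 CPM, and their part in the 2i results was not tested. These comparisons share the WT libraries, as do those of Zic2 KO. The median log2 fold change at 32 h was 1.64 in Ehmt1 KO and 2.28 in the double KO, against 0.00 and 0.02 over all genes.

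In Zic2 KO cells edgeR's quasi-likelihood test called none of the 8 genes in 2i, where 0.274 percent of all genes were called (0.16 higher and 0.115 lower), 1 had an unadjusted p under 0.05, and DESeq2 called 0. At 32 h it called Fbxo15 alone, where 0.0766 percent of all genes were called (0.0447 higher and 0.0319 lower). A fit of only the Zic2 KO and WT groups called 1 gene in 2i, Dppa3, and 3 at 32 h, Zfp42, Dppa3 and Fbxo15, where 1.51 and 10.6 percent of all genes were called. The plot of differences from WT sets the 4 genotypes side by side.

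**Figure D3:**
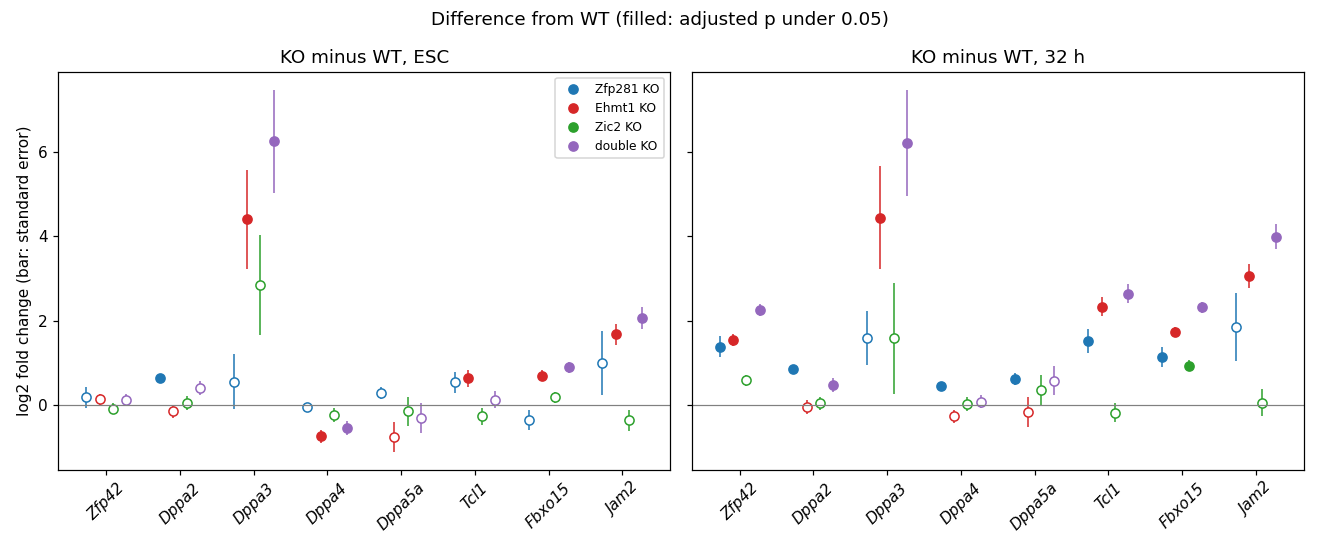
Log2 fold change of each KO genotype against the WT libraries of the same kit at ESC (left) and 32 h (right), with the standard error as bars and filled points for an adjusted p under 0.05. At 32 h Zfp42, Tcl1, Fbxo15 and Jam2 lie at 1.55 to 3.05 in Ehmt1 KO and 2.25 to 3.99 in the double KO; Dppa3 lies highest in both at both stages, with the widest errors.

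Zfp42 was not called in 2i in any polyA KO genotype, with 342 and 379 CPM in Ehmt1 KO, 288 and 325 in Zic2 KO and 346 and 372 in the double KO. At 32 h it stood at 244 and 179 CPM in Ehmt1 KO (1.55 ± 0.14, adjusted p 7.6e-06), 112 and 105 in Zic2 KO (0.59 ± 0.13, adjusted p 0.12) and 364 and 324 in the double KO (2.25 ± 0.14, adjusted p 3.3e-07). WT stood at 69.8 and 74.7, so no KO library overlapped WT. The double KO lines kept 105 and 87 percent of their ESC level, the Ehmt1 KO lines 71.3 and 47.1 percent and the Zic2 KO lines 38.9 and 32.4 percent. DESeq2 called the Zic2 KO difference (0.58, adjusted p 0.012).

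Fbxo15 was called higher than WT in all 3 polyA KO genotypes at 32 h. It stood at 370 and 282 CPM in Ehmt1 KO (1.73 ± 0.13, adjusted p 2.8e-06), 196 and 178 in Zic2 KO (0.93 ± 0.13, adjusted p 0.02) and 458 and 519 in the double KO (2.31 ± 0.14, adjusted p 2.7e-07), against 102 and 94.3 in WT. The double KO lines were above their ESC level, at 106 and 131 percent of it. In 2i Fbxo15 was already higher in Ehmt1 KO (384 and 338 CPM, 0.70 ± 0.13, adjusted p 0.0018) and the double KO (433 and 398 CPM, 0.90 ± 0.13, adjusted p 0.00022) than in WT (236 and 209). The Zic2 KO call was lost without any 1 of the 4 libraries (adjusted p 0.17 to 0.29). Timm21, inside its span, was lower at 32 h in Ehmt1 KO (-0.90 ± 0.23) and the double KO (-1.90 ± 0.23).

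Tcl1 stood at 46.9 and 31.6 CPM in Ehmt1 KO at 32 h (2.33 ± 0.22, adjusted p 1.5e-05) and 46 and 51.4 in the double KO (2.64 ± 0.22, adjusted p 4.4e-06), against 8.42 and 7.18 in WT. Zic2 KO overlapped WT, at 5.86 and 7.86 CPM (-0.18 ± 0.23, adjusted p 0.90). In 2i Tcl1 was higher in Ehmt1 KO, at 111 and 133 against 91.3 and 66.7 CPM (0.63 ± 0.20, adjusted p 0.034), and stood at 80.3 and 92.1 in the double KO (0.13 ± 0.20, adjusted p 0.65). The Ehmt1 KO call in 2i was lost without Zic2_WT (0.44, adjusted p 0.19) or KO line 2 (0.50, adjusted p 0.16).

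Jam2 was higher in both Ehmt1 KO and the double KO, in 2i and at 32 h. In 2i it stood at 257 and 266 CPM in Ehmt1 KO (1.68 ± 0.25, adjusted p 0.0004) and 369 and 309 in the double KO (2.05 ± 0.26, adjusted p 7.3e-05), against 105 and 57.4 in WT and 57.8 and 69.5 in Zic2 KO. At 32 h it stood at 50.3 and 31.2 CPM in Ehmt1 KO (3.05 ± 0.29, adjusted p 1.6e-05) and 76 and 80.1 in the double KO (3.99 ± 0.30, adjusted p 1.7e-06), against 5.61 and 4.19 in WT and 5.01 and 5.2 in Zic2 KO. The level was lower at 32 h than at ESC in every line, and 11.7 to 26 percent of the ESC level was left in Ehmt1 KO and double KO lines against 5.32 and 7.29 percent in WT.

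The difference in the 32 h response, the change from ESC to 32 h in a KO genotype minus that in WT, was called for Zfp42, Tcl1 and Fbxo15 in Ehmt1 KO, 3 of 8 where 1.86 percent of all genes were called (1.21 higher and 0.651 lower). In the double KO it was called for those and Jam2, 4 of 8 against 5.29 percent (3.08 higher and 2.21 lower). For Zfp42 it was 1.41 ± 0.19 and 2.12 ± 0.19 (adjusted p 0.0043 and 0.00024), and for Tcl1 1.70 ± 0.29 and 2.52 ± 0.30 (0.014 and 0.00087). For Fbxo15 it was 1.03 ± 0.19 and 1.41 ± 0.19 (0.015 and 0.0015), and for Jam2 1.37 ± 0.38 and 1.94 ± 0.38 (0.097 and 0.012). With the line as a block, Dppa4 (0.46, adjusted p 0.039) and Jam2 (1.30, adjusted p 0.0074) were called in Ehmt1 KO too, and Dppa4 in the double KO (0.61, adjusted p 0.0052), where 8.69 and 16.7 percent of all genes were called. In a fit of the Ehmt1 KO and WT groups alone Tcl1 (1.72, adjusted p 0.052) and Fbxo15 (1.05, adjusted p 0.06) were not called. In Ehmt1 KO the Tcl1 and Fbxo15 calls were lost without the ESC library of Ehmt1_WT (adjusted p 0.054 and 0.058) or either 32 h WT library (0.056 to 0.095), and the Jam2 call in the double KO without the 32 h library of Zic2_WT (0.069).

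In Zic2 KO cells edgeR called no difference in response among the members or among all genes (0 percent), with 2 members at an unadjusted p under 0.05 and 0 called by DESeq2. Zfp42 had 0.68 ± 0.19 and Fbxo15 0.75 ± 0.19 (adjusted p 0.76 and 0.64), and with the line as a block Fbxo15 was called (0.75, adjusted p 0.042), where 0.319 percent of all genes were.

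The double KO was set against each single KO at 32 h. Against Zic2 KO, 6 of 8 genes were higher, where 35.9 percent of all genes were called (20 higher and 15.9 lower): Zfp42 (1.66 ± 0.14), Dppa2 (0.43 ± 0.16), Dppa3 (4.62 ± 1.10), Tcl1 (2.83 ± 0.22), Fbxo15 (1.38 ± 0.13) and Jam2 (3.93 ± 0.30). Dppa2 was not called with the KO number as a block (0.42, adjusted p 0.058), in a fit of the 2 groups alone (0.44, adjusted p 0.11) or without either Zic2 KO line (0.16 and 0.15) or double KO line 2 (0.14, adjusted p 0.49). Dppa3 was not called without either Zic2 KO line (adjusted p 0.054 and 0.066). Against Ehmt1 KO edgeR called none, where 0.223 percent of all genes were called (0.115 higher and 0.109 lower), 5 members had an unadjusted p under 0.05, and DESeq2 called 3, Zfp42 (0.70), Fbxo15 (0.58) and Jam2 (0.93), where it called 1.86 percent of all genes. Without Ehmt1 KO line 1 edgeR called the same 3, at 0.94, 0.79 and 1.32, and 1.74 percent of all genes. The part of the double KO difference beyond the added Ehmt1 KO and Zic2 KO differences was called by edgeR for none of the members and no other gene (0 percent), with 2 members at an unadjusted p under 0.05 and 0 called by DESeq2.

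Dppa4 was lower in 2i in Ehmt1 KO, at 63.2 and 63.1 CPM (-0.74 ± 0.16, adjusted p 0.0042), and in the double KO, at 61.8 and 83.2 (-0.54 ± 0.16, adjusted p 0.017), than in WT at 113 and 98.2. Zic2 KO lay between, at 90.9 and 87.1 CPM (-0.24 ± 0.16, adjusted p 0.67). By 32 h Dppa4 had reached 116 and 130 CPM in Ehmt1 KO, 161 and 143 in Zic2 KO and 133 and 181 in the double KO, and none was called against 152 and 146 in WT. The double KO call in 2i was lost without Ehmt1_WT (-0.44, adjusted p 0.11), without double KO line 1 (-0.33, adjusted p 0.14) and in a fit of the WT and double KO groups alone (-0.50, adjusted p 0.10).

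Dppa2, its neighbour, stood near WT in Ehmt1 KO and Zic2 KO at both stages, at 104 to 128 CPM in 2i against 117 to 129 in WT, and 144 to 165 at 32 h against 154 to 164. In the double KO it stood at 150 and 176 CPM in 2i (0.40 ± 0.16, adjusted p 0.056) and 177 and 264 at 32 h (0.47 ± 0.16, adjusted p 0.029). The double KO call at 32 h was lost without its line 2 (0.18, adjusted p 0.35) or either WT library (0.15 and 0.085), and in a fit of the 2 groups alone (0.48, adjusted p 0.10). Morc1, beyond Dppa2, was higher at 32 h in Ehmt1 KO (1.44 ± 0.15) and the double KO (1.43 ± 0.15).

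Dppa5a was called in none of the polyA KO comparisons, and its lines varied. It stood at 109 CPM in both Ehmt1 KO lines in 2i, below 205 and 159 in WT (-0.75 ± 0.35, adjusted p 0.13), and the difference was called in a fit of those groups alone (-0.71, adjusted p 0.013). At 32 h it stood at 49.5 and 81.3 CPM in Ehmt1 KO, 85.1 and 102 in Zic2 KO and 98.2 and 121 in the double KO, against 44.8 and 101 in WT. Every group overlapped WT there. Without the 32 h library of Zic2_WT the double KO difference was 1.29 and was called (adjusted p 0.023), against 0.58 ± 0.35 with it.

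Dppa3, the egg and germ cell factor, had the largest called differences of the 8 genes in Ehmt1 KO and the double KO, and of the 8 also differed most between the lines of each of these genotypes. In 2i it stood at 74.6 and 10.3 CPM in Ehmt1 KO lines 1 and 2, 13.3 and 15.8 in Zic2 KO and 231 and 74.6 in the double KO, against 3.14 and 0.851 in WT. At 32 h it stood at 51.4 and 5.7 CPM in Ehmt1 KO, 4.3 and 3.52 in Zic2 KO and 144 and 48.3 in the double KO, against 1.45 and 1.16 in WT. Every KO library lay above every WT library of its stage, and line 1 lay above line 2 in Ehmt1 KO and the double KO at both stages.

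The log2 fold changes of Dppa3 were 4.40 ± 1.17 in 2i and 4.44 ± 1.22 at 32 h in Ehmt1 KO (adjusted p 0.015 and 0.017), and 6.24 ± 1.22 and 6.20 ± 1.25 in the double KO (adjusted p 0.0018 and 0.0021). In Zic2 KO they were 2.85 ± 1.18 and 1.58 ± 1.32 and not called (adjusted p 0.43 and 0.80), but were called in fits of those groups alone (adjusted p 0.028 and 0.0029). Only 2.95, 2.03, 1.67 and 1.08 percent of genes had a larger change in the 4 called comparisons. The Ehmt1 KO differences were 2.37 and 2.13 without KO line 1 and no longer called (adjusted p 0.20 and 0.30). They were also lost without either WT library of the stage (adjusted p 0.062 to 0.12) and with no filter (0.073 and 0.079). The double KO calls at both stages were kept in every alternative run. Genes of the 2-cell stage were higher in the same genotypes at both stages, 4 of 5 tested in Ehmt1 KO and 5 of 5 in the double KO. Across all genes 14.8 and 15.1 percent were higher in Ehmt1 KO, and 20.9 and 21.4 in the double KO. The part of the 2-cell genes in the Dppa3 result was not tested.

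The line difference of Dppa3 had the same direction at each stage in every pair of lines but Zic2 KO, the WT pairs included. On a log2 scale with a prior count of 2, Ehmt1 KO line 1 exceeded line 2 by 2.84 in 2i and 3.15 at 32 h, where the median absolute difference of all genes was 0.22 and 0.23 and 0.0191 and 0.0128 percent of genes differed more. In the double KO line 1 exceeded line 2 by 1.63 and 1.57, with 2.51 and 1.56 percent of genes differing more. In Zfp281 KO line 1 exceeded line 2 by 1.52 in 2i, 1.21 at 16 h and 1.19 at 32 h, with 0.495, 0.561 and 2.89 percent of genes differing more. The Zic2 KO lines differed by 0.24 and 0.28, in opposite directions. Line 1 of polyA WT exceeded line 2 by 1.78 in 2i and 0.30 at 32 h, with 0.326 and 21.2 percent of genes differing more. A wide spread in 2i was thus seen in the polyA WT pair as well as in KO lines other than Zic2 KO. The polyA WT values in 2i rest on 66 and 17 counts. Among the ribo-depleted WT lines, line 1 minus line 2 was -0.87 in 2i, -1.20 at 16 h and -0.10 at 32 h, with 28.8, 2.9 and 75.7 percent of genes differing more.

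Dppa3 stood at 12.6 and 4.35 CPM in Zfp281 KO lines 1 and 2 in 2i, 9.63 and 4.13 at 16 h and 25.8 and 11.3 at 32 h. WT stood at 4.24 to 7.78, 2.76 to 6.41 and 5.96 to 6.39, so the groups overlapped until 32 h. The 32 h difference was 1.59 ± 0.63 and not called by edgeR (adjusted p 0.12), while DESeq2 called it (1.57, adjusted p 0.016). Without Zfp281_WT the differences were 0.94, 1.32 and 1.62 at the 3 stages. Both Zfp281 KO lines stood above their 2i level at 32 h, at 204 and 259 percent of it, whereas in the polyA set Ehmt1 KO and double KO lines stood at 55.1 to 68.9 percent and Zic2 KO lines at 22.3 and 32.2 percent of their ESC level.

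**Figure D4:**
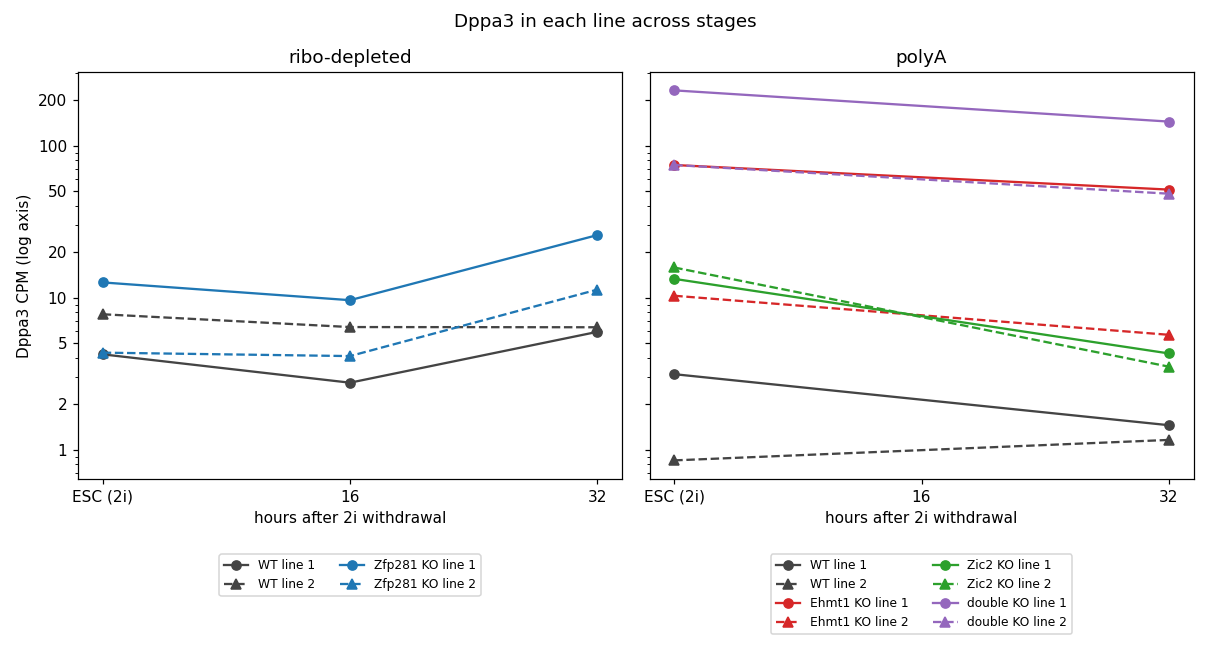
Dppa3 CPM (log axis) in each line against hours after 2i withdrawal, ribo-depleted lines left and polyA lines right; solid lines with circles are line 1 and dashed lines with triangles line 2. The double KO lines lie at 48.3 to 231 CPM and polyA WT lines at 0.851 to 3.14, and the Ehmt1 KO lines stay apart, line 1 at 51.4 to 74.6 and line 2 at 5.7 to 10.3.

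Gdf3, which lies 16336 bases from Dppa3, was not called in Ehmt1 KO (0.17 ± 0.12) or the double KO (0.15 ± 0.12) at 32 h. Nanog, on the other side, was higher at 32 h in Ehmt1 KO (1.56 ± 0.16) and the double KO (2.29 ± 0.17), but fell on exit in WT (-3.17 ± 0.17), where Dppa3 was not called.

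Of 12 naive regulators, transcription factors of the naive network and the DNA demethylase Tet2, 10 fell on exit in WT cells of each kit. Across all genes 11 percent fell in the ribo-depleted set and 17.8 percent in the polyA set. Gbx2, named after its values were seen, rose (1.27 ± 0.22 and 1.95 ± 0.45). In Zfp281 KO cells 3, 10 and 10 of the 12 were higher at ESC, 16 h and 32 h, among them Nr0b1 (2.21 ± 0.14) and Nr5a2 (2.02 ± 0.15) at 32 h. The shares over all genes were 8.5, 15.3 and 16.6 percent. In Ehmt1 KO at 32 h 8 were higher, against 15.1 percent of all genes, with Klf4 at 2.73 ± 0.19 and Esrrb at 1.49 ± 0.14. In the double KO at 32 h 10 were higher, against 21.4 percent of all genes, with Esrrb at 2.47 ± 0.14 and Klf4 at 3.17 ± 0.19. Gbx2 was lower there (-1.40 ± 0.44), where 17.8 percent of all genes were lower. edgeR called none in Zic2 KO at either stage, with 1 at ESC and 4 at 32 h at an unadjusted p under 0.05; DESeq2 was not run on the lists. The median log2 fold change of the 12 at 32 h was 1.70 in Zfp281 KO, 1.06 in Ehmt1 KO, 0.33 in Zic2 KO and 1.60 in the double KO.

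Of 14 formative genes, which come on as the naive state is left, 13 rose in ribo-depleted and 12 in polyA WT cells by 32 h. Across all genes 15 and 17.9 percent rose. In Zfp281 KO cells 3 of the 14 were higher and 4 lower than WT at ESC, and 2 were higher and 9 lower at 16 h, with Dnmt3a (-2.30 ± 0.10) and Dnmt3b (-1.42 ± 0.09), enzymes that set new DNA methylation, among the lower. At 32 h 6 were higher and 6 lower, with Dnmt3a at -1.55 ± 0.10 and Dnmt3b at -1.31 ± 0.11. The shares over all genes were 8.5 percent higher and 5.3 lower at ESC, 15.3 and 13.3 at 16 h, and 16.6 and 11.9 at 32 h. The median log2 fold change of the 14 was 0.07, -0.72 and 0.04 at the 3 stages, against -0.04, -0.01 and -0.07 over all genes. At ESC 3 were higher and 3 lower in Ehmt1 KO (14.8 and 12.1 percent of all genes), and 2 were higher and 4 lower in the double KO (20.9 and 18.5 percent). At 32 h 1 of the 14 was higher in Ehmt1 KO, Otx2 (0.48 ± 0.15), against 15.1 percent of all genes. In the double KO 1 was higher and 6 lower (21.4 and 17.8 percent of all genes), with Sall2 (-0.92 ± 0.19) and Dnmt3b (-0.78 ± 0.18) among the lower. Zic2 KO had 2 lower at ESC, against 0.115 percent of all genes, Otx2 (-1.43 ± 0.18, adjusted p 0.014) and Dnmt3l (-1.67 ± 0.24, adjusted p 0.016). At 32 h edgeR called none there, with 3 at an unadjusted p under 0.05.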

How the data were processed

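RNA was measured in 28 libraries of 14 groups. The authors deposited raw counts per gene, 1 table of ESC and 32 h libraries and 1 of 16 h libraries, on GRCm38 (mm10), with edgeR among the tools, per the submitters' processing notes. Aligner, counter and annotation are not named there. Every column was matched to a sample by name (0 unmatched), and 24061 of 24116 Entrez IDs had a RefSeq symbol and 55 had none. The unprefixed WT line was placed in the ribo-depleted set because the remaining WT lines carry the names of the KO sets.

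Ribo-depleted ESC and 32 h, ribo-depleted 16 h, and polyA libraries were fitted apart in edgeR 4.0.16 (R 4.3.3, limma 3.58.1): filterByExpr (minimum count 10, minimum total 15; 18971, 15139 and 15667 genes kept), TMM scaling, and a robust quasi-likelihood test with Benjamini-Hochberg adjustment over all genes kept. The ± is the standard error. DESeq2 1.42.0 was an alternative, and the fit was checked on simulated data. The members and lists were chosen with earlier results of these data known. The 8 members are always named; of a list, up to 4 called genes with the smallest adjusted p; beside a member, its nearest tested genes.

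The same line was sampled at each stage, and deviations from the group means correlated between ESC and 32 h at 0.88 (ribo-depleted WT), 0.05 (Zfp281 KO), 0.05 (polyA WT), 0.46 (Ehmt1 KO), 0.18 (Zic2 KO) and 0.53 (double KO). Between genotypes only the number was shared (0.22 and -0.06). Of the lists, 7 of 12 relatives and 4 of 5 ubiquitin ligase core genes were tested.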

Additional observations from a re-analysis of the deposited data

Results flagged for a closer look

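For 8 combinations of gene and genotype the change from ESC to 32 h differed from that of WT in a test of the difference itself, edgeR's quasi-likelihood interaction test. In Zfp281 KO the log2 difference was 0.51 for Dppa4 (adjusted p 0.027), while a larger 1.49 for Fbxo15 was not called (0.058). In Ehmt1 KO it was 1.41 for Zfp42 (0.0043), 1.70 for Tcl1 (0.014) and 1.03 for Fbxo15 (0.015). In the double KO it was 2.12 for Zfp42 (0.00024), 2.52 for Tcl1 (0.00087), 1.41 for Fbxo15 (0.0015) and 1.94 for Jam2 (0.012). The shares of all genes called were 4.15, 1.86 and 5.29 percent. The Dppa4 call was lost without any single KO library and with no filter. In Ehmt1 KO the Tcl1 and Fbxo15 calls were lost in a fit of those groups alone and without any of several WT libraries. The double KO call of Jam2 was lost without the 32 h library of Zic2_WT. The WT libraries are shared by the Ehmt1 KO and double KO values. With 2 libraries a group, no single library was tested as standing apart.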

How the results depend on the processing

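With 2 lines a group, many calls near the threshold rest on 1 library. No member reversed a called direction in any alternative. Of 672 values under alternatives other than leaving out 1 library, 616 kept their side of the threshold, 15 lost it and 41 gained it. These 672 include the fits without the line Zfp281_WT, which leave a single WT library at each stage. Some of the 41 gains come from those fits and are not read as calls. At 16 h the fit without that line is also 1 of those with a library left out. Signs of uncalled values changed in 5 of the 672, and in 49 of 736 values with 1 library left out.

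Members called are given beside the reported count. In fits of the compared groups alone, 3 were called (not 5) on exit in ribo-depleted WT, 2 (1) in Zfp281 KO at ESC, 3 (6) in Zfp281 KO at 32 h, 1 (0) and 3 (1) in Zic2 KO at ESC and 32 h, and 1 (3) for the Ehmt1 KO response. Fits without the line Zfp281_WT leave a single WT library at each stage and are given above by effect size only. The Zfp281 KO response gave 0 (1) with no filter and 2 by DESeq2, against 2.4 and 5.82 percent of all genes. DESeq2 called 2 (1) in Zic2 KO at 32 h, against 1.3 percent. Between double KO and Ehmt1 KO it called 3 (0), against 1.86 percent, and no filter gave 1, against 0.333 percent. With the line as replicate block, the responses gave 5 (1) in Zfp281 KO, 5 (3) in Ehmt1 KO and 1 (0) in Zic2 KO. The shares of all genes called there were 13.7, 8.69 and 0.319 percent. With raw totals the Dppa3 difference between ribo-depleted WT lines at 32 h was 0.23 (0.10).

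Leaving out 1 library gave 4 to 6 members in ribo-depleted WT, 4 to 5 in polyA WT, 0 to 2, 1 to 5 and 3 to 7 in Zfp281 KO at ESC, 16 h and 32 h, and 0 to 4 for its response. It gave 3 to 4 and 4 to 5 in Ehmt1 KO at ESC and 32 h, 0 in Zic2 KO at both, 3 to 4 and 5 to 6 in the double KO, 1 to 4, 0 and 3 to 5 for the Ehmt1 KO, Zic2 KO and double KO responses, 0 to 3 for double KO against Ehmt1 KO, 4 to 6 against Zic2 KO and 0 for additivity. Each of these fits leaves 1 library in a group, so the ranges are not read as calls. They show how far the counts of members depend on single libraries. Shares over all genes are not set beside the ranges, so they are not compared with a background. Beyond the calls given, the replicate block changed none.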

Other observations

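Relatives and partners of the 8 genes were also read. Khdc3, a KH domain relative of Dppa5a that works in the egg, fell on exit in polyA WT cells (-3.16 ± 0.63) and was higher at 32 h in Zfp281 KO (2.38 ± 0.17), Ehmt1 KO (3.10 ± 0.63) and the double KO (4.92 ± 0.62). Ooep, of the same family, was higher in Zfp281 KO at ESC, 16 h and 32 h (0.85, 0.89 and 1.14) and not called in Ehmt1 KO, Zic2 KO or the double KO. Of 7 relatives tested, 4 were higher and 1 lower at 32 h in Zfp281 KO, against 16.6 and 11.9 percent of all genes. The lower one was Jam3, the relative of Jam2 (-0.93 ± 0.13). At 32 h 1 relative was higher in each of Ehmt1 KO and the double KO, against 15.1 and 21.4 percent of all genes. Of 4 core genes of the Fbxo15 type of ubiquitin ligase, Cul1 alone rose in WT cells of both kits, where 15 (ribo-depleted) and 17.9 percent (polyA) of all genes rose.

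Genes of the 2-cell stage, which Dppa2 and Dppa4 are known to open, are multi-copy and their counts uncertain. In Ehmt1 KO 4 of 5 tested were higher at both stages, against 14.8 and 15.1 percent of all genes, with Usp17lc at 4.12 ± 0.47 and Zfp352 at 4.49 ± 0.72 in 2i. All 5 were higher at both stages in the double KO, against 20.9 and 21.4 percent of all genes, with Usp17lc at 4.59 ± 0.46 and Zscan4d at 3.27 ± 0.47 in 2i. In Zfp281 KO 1 of 6 was higher at ESC, 2 of 5 at 16 h and 2 of 6 at 32 h, against 8.5, 15.3 and 16.6 percent of all genes. In Zic2 KO edgeR called none at either stage, with 4 of 5 at an unadjusted p under 0.05 at each. Usp17lc stood at 2.54 ± 0.52 and Zscan4d at 2.46 ± 0.47 in 2i there (adjusted p 0.056 and 0.054), both named after their values were seen. Of 10 DNA methylation genes tied to Dppa3, 2 were higher and 2 lower at ESC in Zfp281 KO and in Ehmt1 KO, with Tet3 at 1.97 ± 0.23 and Dnmt3a at -0.46 ± 0.14 in Ehmt1 KO. In the double KO 3 were higher at ESC, with Tet3 at 2.16 ± 0.23 and Dnmt3b at 0.69 ± 0.18, and none was lower. The shares over all genes at ESC were 8.5 percent higher and 5.3 lower in Zfp281 KO. They were 14.8 and 12.1 percent in Ehmt1 KO, and 20.9 and 18.5 in the double KO. Counts of this size in 10 genes are not read as a response of the list. At 16 h 1 of the 10 was higher and 3 lower in Zfp281 KO, against 15.3 and 13.3 percent of all genes. At 32 h 4 were higher and 2 lower in Zfp281 KO (16.6 and 11.9 percent of all genes), and 3 were lower in the double KO (17.8 percent). In Ehmt1 KO edgeR called none at 32 h, with 2 at an unadjusted p under 0.05. Uhrf1, the known partner of Dppa3, named after its values were seen, stood at 32 h at 0.50 ± 0.10 in Zfp281 KO (adjusted p 0.0051), 0.24 ± 0.08 in Ehmt1 KO (adjusted p 0.054) and 0.05 ± 0.08 in the double KO (adjusted p 0.64).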
